A study of Homo sapiens with 6 samples.

Results

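The MCM family in this comparison comprised the 10 genes MCM2, MCM3, MCM4, MCM5, MCM6, MCM7, MCM8, MCM9, MCM10 and MCMBP, chosen by symbol, and all 10 had a row among the 15794 human genes of the authors' deposited table. The table sets 3 biological replicates of eHAP cells in which TFDP1 was targeted by guide RNAs against 3 control replicates in which no gene was targeted. eHAP is a haploid line engineered from HAP1, a line of chronic myeloid leukaemia origin. In both groups the cells expressed Cas9, received a plasmid with a puromycin resistance gene, were under puromycin from 24 to 72 h and were collected at 5 days, and 500000 of them were mixed with 10000 Drosophila S2 cells as a spike-in before poly(A) RNA was sequenced. The cells were a selected, transfected population, in which the share of disrupted TFDP1 genes was not measured by any file used here. The question asked of the family was whether its transcripts differed between the TFDP1-targeted cells and the controls. TFDP1 encodes DP1, with which most E2F transcription factors pair to bind DNA.

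The table gives each gene 1 log2 fold change, 1 mean level as log2 CPM (counts after scaling of the libraries), a likelihood ratio and an adjusted p (FDR). The authors obtained these with edgeR, and whether the scaling used human reads or the spike-in was not given. Replicate values were not used here, so no value for each sample can be shown beside the statistics. An approximate standard error (SE) was taken as the size of the log2 fold change over the root of its likelihood ratio, and intervals span 95% on that basis. TFDP1 itself had a log2 fold change of 1.17 (SE 0.032) at a mean of 226 CPM in the authors' deposited table (adjusted p = 1.08e-283, edgeR). Nothing in the table says which group is the numerator. Since a small Cas9 deletion need not lower the transcript it hits, the level of TFDP1 does not settle this. A positive value therefore means only that a transcript went with TFDP1, being higher in whichever group had more TFDP1 RNA, and a negative value that it was lower there. Of all 15794 genes, 17.3% were called positive and 22.2% negative at an adjusted p under 0.05, 39.5% in either direction.

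MCM2 to MCM7 are the subunits of the ring-shaped helicase that unwinds DNA ahead of the replication fork. The origin recognition complex, CDC6 and CDT1 load the ring onto DNA in G1 phase, and in S phase the kinase CDC7 with DBF4, together with CDC45 and the GINS proteins, turns it into the active helicase. MCM8 and MCM9 form a separate helicase that acts in homologous recombination, MCM10 helps start the fork and MCMBP binds free MCM subunits. The MCM2 to MCM7 genes are long known as E2F targets in human cells. MCM transcript levels also follow the proliferative state of a culture, and in bulk RNA a smaller share of cells that express a gene cannot be told apart from less RNA per cell.

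Of 10 blood and leukaemia markers, 6 were among the rows analysed here, 1 called positive, 2 negative and 3 not called, at 0.177 to 18.1 CPM. PTPRC, GATA1 and SPI1 were not among them, so the blood origin of the line was not visible in these defining markers. Some markers of other cell types differed between the groups by more than any MCM gene did. Of 9 fibroblast markers 5 were among the rows and 4 of these were negative, with SPARC at a log2 fold change of -3.47. Of 7 epithelial markers 5 were among the rows and 3 of these were negative, with KRT8 at -2.94 in the authors' deposited table. COL1A2, COL3A1, DCN, LUM, CDH1 and KRT19 were not among the rows. Some negative markers had low levels, with THY1 at 2.97, POSTN at 2.30 and EPCAM at 0.515 CPM. Of all genes, 22.2% were negative. Of 7 neuronal markers 6 were among the rows, 2 negative and 1 positive, with TUBB3 at -1.13, NES at -0.90 and SYP at 1.71. Their part in the MCM values was not tested.

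RefSeq promoter windows on GRCh38.p14, running from 250 bases before to 50 after a start, matched 8 of the 10 genes in 11 windows; none was used for MCM4 and MCM5. The letters searched for E2F, on both strands, were TTTCCCGC or TTTCGCGC or TTTGCCGC or TTTGGCGC. At least 1 of these stood in a window of 6 of the 8 genes (MCM2, MCM3, MCM6, MCM7, MCM8 and MCMBP), against 3.31% of all 35116 windows and 720 of the 11251 genes in the table that had a window. The match nearest to a start is shown for each of these 6 genes, since the letters differ between them; each stretch reads 5′ to 3′ along the gene's own strand, with the match in capitals. The stretches lie at chr3:127598403-127598430 (plus strand) for MCM2, chr6:52284729-52284756 (minus) for MCM3, chr2:135876512-135876539 (minus) for MCM6, chr7:100101389-100101416 (minus) for MCM7, chr20:5950668-5950695 (plus) for MCM8 and chr10:119872835-119872862 (minus) for MCMBP.
MCM2: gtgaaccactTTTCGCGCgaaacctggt
MCM3: gttcggaagtTTTCGCGCcggggtggag
MCM6: gtcaggtttgGCGCGAAAtctccagctc
MCM7: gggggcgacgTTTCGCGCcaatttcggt
MCM8: gatcactgaaGCGCCAAAaaagaattta
MCMBP: gcggcggctaTTTCCCGCcattgtgcga
The match was on the opposite strand in MCM6 and MCM8, and its first base lay 3 bases into the transcript in MCM2, 27 into it in MCM8, and 4, 86, 9 and 9 bases before the start in MCM3, MCM6, MCM7 and MCMBP.

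Counted per strand, the MCM6 window held 4 such matches, more than any other MCM window. They formed 2 overlapping pairs on opposite strands, so the separate places were fewer than the matches. MCM3 (at -174 and -4) and MCM7 (at -187 and -9) also held matches at 2 separate places each. The MCM6 pairs are visible in the 250 bases before its start, chr2:135876444-135876693 on the minus strand, with E2F matches of 7 or 8 letters in capitals. The stretch of the MCM7 promoter that lies outside every annotated exon, chr7:100100870-100101004 on the minus strand, belongs to another start of that gene and held 2 matches to the 7-letter forms, which lack the first T. The 246 bases at chr10:13161308-13161553 on the plus strand, before the start of MCM10, held none and are shown for contrast.
MCM6: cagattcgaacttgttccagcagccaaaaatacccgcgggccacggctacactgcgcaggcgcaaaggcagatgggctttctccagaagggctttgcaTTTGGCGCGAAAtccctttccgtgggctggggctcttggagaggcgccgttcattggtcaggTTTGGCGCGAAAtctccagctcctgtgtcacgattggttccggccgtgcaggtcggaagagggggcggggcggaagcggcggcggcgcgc
MCM7: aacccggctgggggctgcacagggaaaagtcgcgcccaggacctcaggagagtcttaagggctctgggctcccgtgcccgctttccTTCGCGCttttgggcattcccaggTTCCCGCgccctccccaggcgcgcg
MCM10: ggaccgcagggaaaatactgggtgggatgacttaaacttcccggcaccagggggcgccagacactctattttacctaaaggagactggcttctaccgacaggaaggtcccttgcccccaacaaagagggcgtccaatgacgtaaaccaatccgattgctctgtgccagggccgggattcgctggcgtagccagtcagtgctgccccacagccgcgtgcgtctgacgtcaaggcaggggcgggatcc
MCM10 and MCM9 were the 2 genes with no E2F match of either length. The 7-letter forms stood in windows of the same number of genes, 6 of 8, against 24.4% of the genes in the table with a window and 13.0% of all windows. CCAAT, the letters bound by NF-Y, stood in windows of 6 of the 8 genes, against 42.5% of the genes in the table and 34.6% of all windows, and TTTGAA or TTCGAA, the forms of the cell cycle homology region, in 1 of the 8 (MCM6), against 15.7% of the genes and 16.4% of all windows. MCM7 was counted over 3 windows and MCMBP over 2. A match of letters is a description of the sequence and says nothing of binding in these cells.

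**Figure D1:**
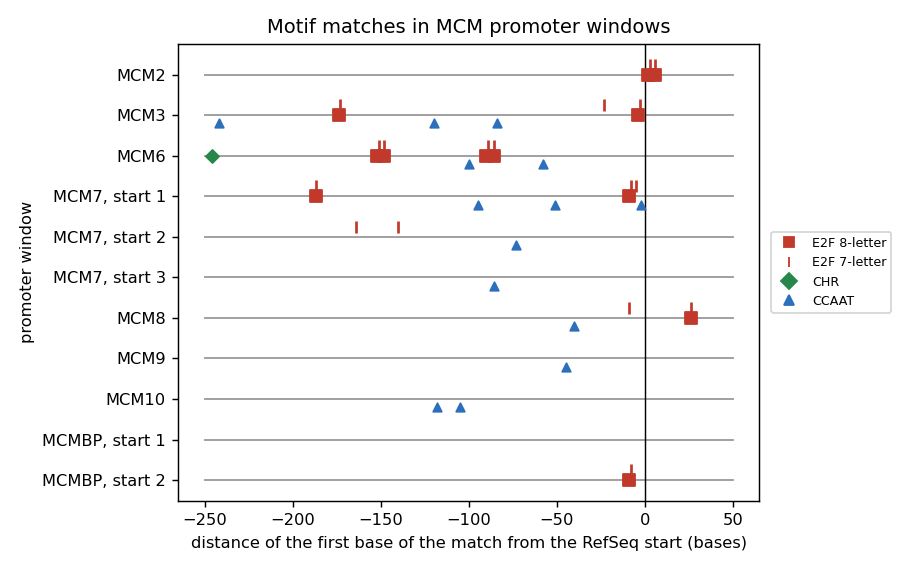
Positions of motif matches in the 11 RefSeq promoter windows of 8 MCM genes. The horizontal axis is the distance in bases from the annotated start at 0, each grey line is 1 window, and symbols mark the first base of a match to the 8-letter E2F forms (square), the 7-letter E2F forms (tick), the cell cycle homology region (CHR, diamond) or CCAAT (triangle). MCM6 holds 4 matches to the 8-letter forms, as overlapping pairs on opposite strands, and MCM9 and MCM10 hold none.

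Among the 10 MCM genes, 8 were positive, 1 was negative and 1 was not called. The median log2 fold change was 0.26, against -0.03 for all genes. The largest difference was 1.41-fold, in MCM4, so the changes were modest beside the 2.25-fold of TFDP1. Since abundant genes were called more often, the better reading is against the 8151 genes between the lowest and the highest MCM level, of which 51.6% were called, 25.2% positive and 26.4% negative, with a median of -0.003. The MCM share was 8 of 10 positive and 1 of 10 negative.

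The ring subunits differed among themselves. Of MCM2 to MCM7, 4 were positive, 1 negative and 1 not called; their median log2 fold change was 0.17, with a range from -0.11 to 0.50. They are described here by the subcomplexes in which they are known to assemble, MCM4 with MCM6 and MCM7, MCM3 with MCM5, and MCM2.

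Within the MCM4, MCM6 and MCM7 core, MCM4 (chromosome 8, 47960185 to 47978160, plus strand, GENCODE 29 on GRCh38) had the largest change of the family. Its log2 fold change was 0.50 (SE 0.041) at 459 CPM in the authors' deposited table (adjusted p = 1.48e-31). Of the 310 genes within 0.5 log2 CPM of it, 94.5% had a lower fold change. MCM7 (chromosome 7, 100092728 to 100101940, minus strand) was at 0.33 (SE 0.045), or 1.26-fold, at 748 CPM, the highest level in the family (adjusted p = 9.53e-12). MCM6 (chromosome 2, 135839626 to 135876426, minus strand) was at 0.09 (SE 0.043) with an adjusted p of 0.0828 and was not called. Its window held the most E2F matches counted per strand, though as overlapping pairs. A relation of matches to fold change within the family was not tested. The 3 core genes thus had unequal values, with MCM4 above MCM6 by 0.41 (approximate 95% interval 0.29 to 0.52) and above MCM7 by 0.17 (0.05 to 0.29) on the log2 scale. These intervals treat the genes as independent, which genes of the same libraries are not.

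MCM3 and MCM5, which pair in the ring, lay on opposite sides of 0. MCM3 (chromosome 6, 52264009 to 52284881, minus strand) had a log2 fold change of 0.12 (SE 0.028), or 1.09-fold, at 366 CPM in the authors' deposited table (adjusted p = 1.44e-04). Its SE was unusually small, since 6.07% of the 428 genes of like level had a smaller one, and the median among them was 0.042. MCM5 (chromosome 22, 35400063 to 35425430, plus strand) was the single negative member, at -0.11 (SE 0.038), or 1.08-fold, at 278 CPM, with an adjusted p of 0.0191. MCM3 exceeded MCM5 by 0.23 (interval 0.13 to 0.32). The negative call of MCM5 did not hold under 6 of 9 alternatives. It ended at an adjusted p under 0.01, and its value was -0.08 after re-centring on the median gene, -0.03 after re-centring on the median ribosomal protein gene and -0.04 once trends on length and GC content of the transcript had been removed. MCM2 (chromosome 3, 127598223 to 127622436, plus strand), which carries a histone-binding tail, was positive at 0.22 (SE 0.043), or 1.17-fold, at 446 CPM (adjusted p = 2.12e-06).

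**Figure D2:**
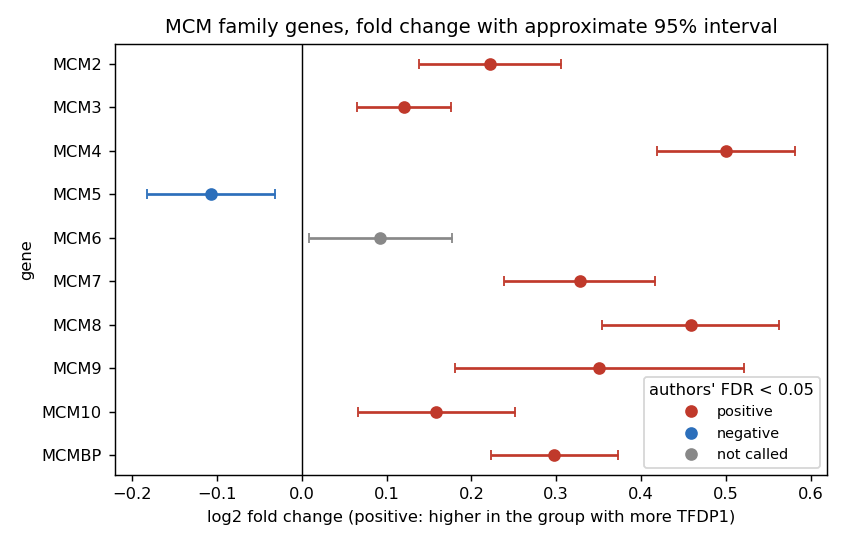
Log2 fold change of each MCM gene in the authors' deposited table (points) with approximate 95% intervals (bars). The horizontal axis is positive where a transcript was higher where TFDP1 was higher, and colours mark the call at an adjusted p under 0.05. MCM4 lies furthest to the right at 0.50 and MCM5 is the single gene left of 0, at -0.11.

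The remaining 4 members were all positive, and their median log2 fold change was 0.32. MCM8 (chromosome 20, 5950652 to 5998977, plus strand) was second in the family at 0.46 (SE 0.053), or 1.37-fold, at 74.7 CPM (adjusted p = 1.73e-16), and 97.0% of the 2503 genes of like level lay below it. Its partner MCM9 (chromosome 6, 118813442 to 118935162, minus strand) was at 0.35 (SE 0.087), or 1.28-fold, at 20.5 CPM, the lowest level in the family (adjusted p = 3.06e-04). The values of these 2 partners differed by 0.11, with an interval of -0.09 to 0.31 that holds 0. MCM10 (chromosome 10, 13161554 to 13211104, plus strand) was at 0.16 (SE 0.047), or 1.12-fold, at 104 CPM (adjusted p = 0.00343). MCMBP (chromosome 10, 119829404 to 119892556, minus strand) was at 0.30 (SE 0.038), or 1.23-fold, at 205 CPM in the authors' deposited table (adjusted p = 2.00e-13). With the length and GC trends removed, MCM9 at 0.19 and MCM10 at 0.10 were no longer called.

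From the highest fold change to the lowest, the order was MCM4, MCM8, MCM9, MCM7, MCMBP, MCM2, MCM10, MCM3, MCM6 and MCM5. For 8 of the 9 neighbouring pairs in this order the interval of the difference held 0, so the order is coarse. The exception was MCM6 above MCM5, by 0.20 (interval 0.09 to 0.31). The calls of MCM4 and MCM8 held under all 9 alternatives tried. When every likelihood ratio was divided by 7.34, the inflation of its median over all genes, MCM4 and MCM8 were the 2 members still called, among 255 positive and 385 negative genes in the whole table. That setting takes most genes as unchanged and is therefore severe.

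**Figure D3:**
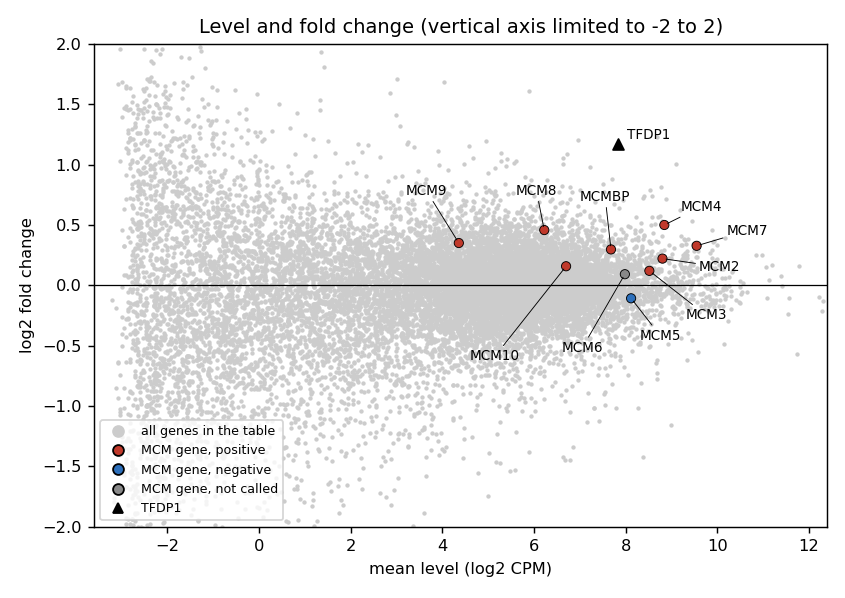
Mean level (horizontal axis, log2 CPM) against log2 fold change (vertical axis, limited to -2 to 2) for all genes in the authors' deposited table (grey), the 10 MCM genes (coloured by call, outlined in black) and TFDP1 (triangle). The MCM genes lie between 20.5 and 748 CPM, and 9 of the 10 lie above 0.

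Per length, the transcripts of the ring subunits were the most abundant of the family. Each mean CPM was divided by the length of the longest GENCODE transcript, which gave 242 CPM per kb for MCM7, 123 for MCM2, 114 for MCM3, 110 for MCM4, 67.6 for MCM6 and 60.4 for MCM5. MCMBP followed at 49.1, MCM10 at 22.6, MCM8 at 9.97 and MCM9 at 2.70 CPM per kb. These are levels over both groups together and have no error of their own, so the close values of MCM2, MCM3 and MCM4 cannot be put in order. The choice of transcript also moves them, most of all for MCM8 and MCM9, whose longest transcripts have 7486 and 7592 bases. The 4 largest fold changes belonged to the 2 scarcest members per length, MCM8 and MCM9, and to MCM4 and MCM7 among the ring subunits.

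Several MCM genes have an annotated start near that of a gene on the other strand, which allowed the value of each to be set beside that of its neighbour. Starts on opposite strands within 1000 bases were annotated for 6 members, and 5 of these neighbours had a row. PRKDC, the catalytic subunit of the DNA-dependent protein kinase, starts 2 bases from MCM4 and was positive at a log2 fold change of 0.27 (SE 0.087, adjusted p = 0.00754). TPRA1, a membrane protein gene 44 bases from MCM2, was at -0.01 with an adjusted p of 0.935. AP4M1, an adaptor subunit of vesicle transport whose start lies 391 bases from that of MCM7, was at -0.04 (adjusted p = 0.855). TRMT6, a tRNA methyltransferase subunit 94 bases from MCM8, was at 0.10 (adjusted p = 0.0875). SEC23IP, a protein of secretory transport, starts 155 bases from the GENCODE start of MCMBP and was at -0.07 (adjusted p = 0.301). The RefSeq windows of MCMBP, at chr10:119872794-119873093 and chr10:119873532-119873831, lie apart from SEC23IP, which starts at 119892711. The E2F match shown for MCMBP is therefore not in a region shared with SEC23IP. Thus 1 of the 5 neighbours and all 5 MCM genes were called in the authors' deposited table. The shares called were 39.5% of all genes and 51.6% of genes at the levels of the MCM family. AP4M1, at 9.69 CPM with an SE of 0.12, lay below those levels.

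The difference of MCM gene minus neighbour was above 0 in all 5 pairs, and none of the 5 intervals held 0. The MCMBP pair is included by its GENCODE start alone, since its RefSeq windows lie apart from SEC23IP. It was 0.37 for MCMBP (interval 0.24 to 0.49), 0.36 for MCM8 (0.22 to 0.50), 0.37 for MCM7 (0.11 to 0.62), 0.23 for MCM2 (0.05 to 0.42) and 0.23 for MCM4 (0.04 to 0.42), again taking genes as independent. Genes that overlap a member make its count uncertain, because the authors' counting may or may not have used strand, a setting not given in the sources used here. All of ASF1A, a histone chaperone gene on the opposite strand, lies within MCM9, and it was positive at 0.41 (SE 0.058, adjusted p = 2.23e-11) at 51.5 CPM, above the 20.5 CPM of MCM9. MCM8-AS1, antisense to MCM8, had few reads behind it and was not called (adjusted p = 0.567). The microRNA genes MIR25, MIR93 and MIR106B lie within MCM7 on its own strand and were not called, at 0.834, 0.207 and 0.165 CPM. Those values come from poly(A) RNA and do not measure the mature microRNAs.

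**Figure D4:**
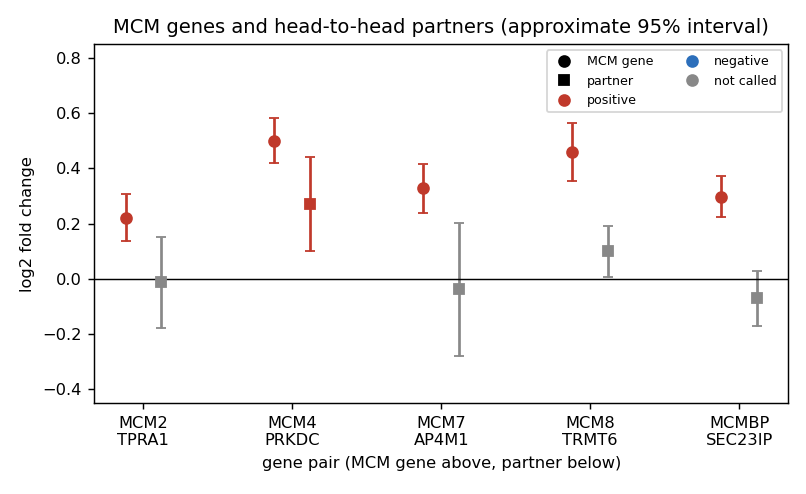
Log2 fold change (vertical axis) of 5 MCM genes (circles) and the gene that starts head to head with each (squares), with approximate 95% intervals (bars) and colours for the call. Every MCM gene lies above its neighbour, and of the neighbours PRKDC alone was called, at 0.27. MCMBP is paired with SEC23IP by its GENCODE start alone.

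Genes related to the helicase were counted in 7 lists of 89 genes in all, every one of which had a row. The lists cover loading, kinases and adaptors, activation, fork partners, unloading, partners of MCM8 and MCM9, and other DNA helicases. Of the 89, 45 were positive, 9 negative and 35 not called. The shares to read these and the following counts against are 17.3% positive and 22.2% negative over all genes, and 25.2% and 26.4% over genes at the levels of the MCM family. The lists were chosen with earlier results of these data known, so the counts are descriptions.

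Upstream of the ring, the origin recognition and loading list gave 4 positive and 0 negative of 11 genes, at a median of 0.10 on the log2 scale. The positive genes were GMNN, an inhibitor of loading, at 0.42 (adjusted p = 2.35e-17), ORC1 at 0.33, CDT1 at 0.23 and CDC6 at 0.23 in the authors' deposited table. The other subunits of the origin recognition complex, ORC2 to ORC6, were not called, at -0.08 to 0.13. Kinases and adaptors that act on MCM proteins gave 5 positive of 6 with a median of 0.40. CDK2 was at 0.60, CDK1 and the phosphatase adaptor RIF1 at 0.44, CDC7 at 0.37 and its activator DBF4 at 0.31, while DBF4B was not called at -0.11.

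Helicase activation genes gave 9 positive and 1 negative of 10, with a median of 0.30. GINS1 was at 0.49, the origin firing gene TICRR at 0.44 and DONSON at 0.38, but GINS4 was negative at -0.18 (adjusted p = 9.48e-04) in the authors' deposited table. Like the MCM ring, the GINS complex therefore had 1 subunit with the sign opposite to the rest. The negative call of GINS4 ended at a minimum of 1.2-fold, after re-centring on the ribosomal protein median and with the likelihood ratios divided by 7.34.

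Fork partners gave 8 positive and 3 negative of 13 with a median of 0.26. POLA1, the catalytic subunit of polymerase alpha, was at 0.69, and SSRP1 and SUPT16H, the subunits of the histone chaperone FACT, were at 0.34 and 0.28 in the authors' deposited table. The negative genes were POLE4 at -0.52, the fork protection gene TIMELESS at -0.14 and TONSL, whose product binds replicated chromatin, at -0.15. Genes of helicase unloading gave 4 positive and 1 negative of 11, with a median of 0.04. FAF1, a cofactor of the VCP segregase, was at 0.51, the elongin subunit TCEB2 was negative at -0.31, and VCP was called positive at only 0.05. The VCP call rests on an SE of 0.0054 at 769 CPM, which is unusually small. The median SE was 0.044 among the 176 genes within 0.5 log2 CPM of MCM7, which had a similar level.

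Partners of MCM8 and MCM9 in recombination gave 6 positive and 0 negative of 10, with a median of 0.23. XRCC3 and RAD51D, which act in strand exchange, were at 0.45 and 0.40 and NBN, of the complex that resects DNA ends, at 0.28, while C17orf53, the MCM8 loader also called HROB, at 0.04 was not called. The 28 other DNA helicases gave 9 positive, 4 negative and 15 uncalled genes, a positive share near that of genes at the MCM levels, and their median was 0.06. BRIP1, a helicase of crosslink repair, at 0.60 and BLM, which limits crossovers in recombination, at 0.36 had the smallest p among the positive genes in the authors' deposited table, and ERCC2 at -0.40, HLTF at -0.27, FBXO18 at -0.17 and RUVBL2 at -0.15 were negative. The MCM median of 0.26 stood above the medians for loading, unloading, other DNA helicases and partners of MCM8 and MCM9. It was level with that for fork partners, at 0.26, and below those for kinases and activation. These differences were not tested.

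The 3 listed genes nearest to the median of MCM2 to MCM7 were POLQ at 0.17, CDC45 at 0.16 and POLE at 0.19, the measure being the difference of log2 fold changes in the single comparison of 6 samples. POLQ was not called (adjusted p = 0.0621). Outside the family by the symbol rule, MCMDC2, which shares an MCM domain, was at -0.43 with an SE of 0.22 at 2.45 CPM and was not called, and MCM3AP, a nuclear export scaffold rather than a helicase, was positive at 0.23 (adjusted p = 0.00453). Both were named after their values had been seen.

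Across all genes in the table with a promoter window, the 720 with an 8-letter E2F match had a median log2 fold change of 0.06, against -0.02 for those without. Of the 720, 31.1% were called positive and 17.4% negative, against 18.1% and 23.5% of the genes without a match. Of the 8 MCM genes with a window, 6 had a match. Among these, MCM2, MCM3, MCM7, MCM8 and MCMBP were positive and MCM6, with 4 matches in overlapping pairs, was not called. MCM9 and MCM10 had no match and were positive. Whether matches went with calls in so few genes was not tested.

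**Figure D5:**
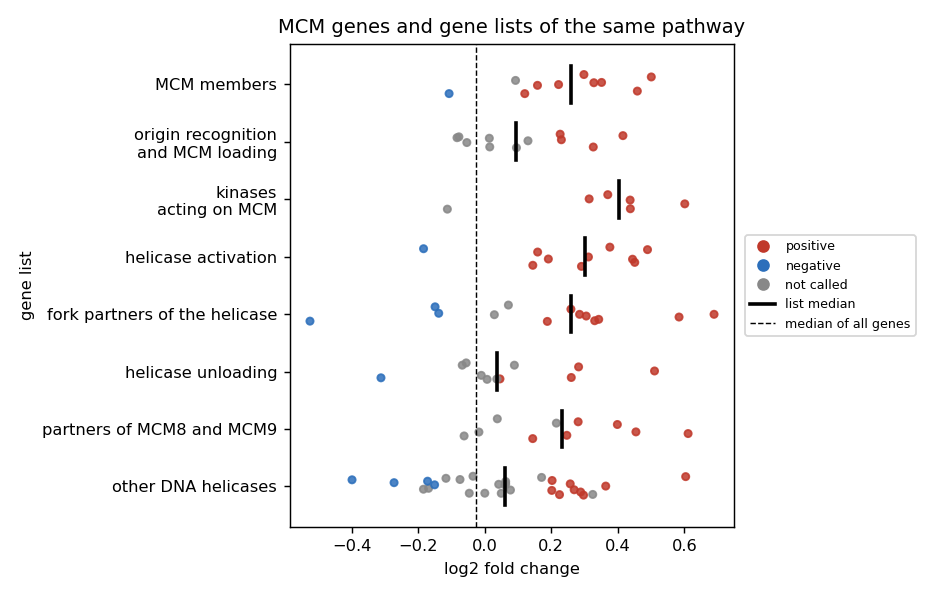
Log2 fold change (horizontal axis) of the MCM genes and of 7 lists of related genes (rows). Each point is 1 gene coloured by its call, the thick bars are list medians and the dashed line is the median of all genes at -0.03. The MCM median is 0.26, and the list medians run from 0.04 for unloading to 0.40 for kinases.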

How the data were processed

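Poly(A) RNA of 6 samples, 3 TFDP1 knockout and 3 control, was compared by the authors. The submitters' processing notes list the builds hg38 and dm6 and the tools edgeR, featureCounts, HISAT2 and Trimmomatic. Each gene of the table that the authors deposited has a log2 fold change and a log2 CPM. Per the file headers it also has a p-value and FDR from a test on the likelihood ratio, which the authors deposited as a score. Tool versions, counting settings, the numerator of the fold change and whether libraries were scaled by human reads or by the spike-in were details not given in the sources used here. Depth per sample is unknown, and p-values measure only the spread between these replicates.

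Because the table holds no values per sample, the authors' adjusted p under 0.05 was the call, and samples were not tested anew. Approximate standard errors, re-centring (normal p, Benjamini-Hochberg over all genes), lowess trends (span 0.3), annotation from GENCODE 29, matched by symbol for 93.6% of the rows, and RefSeq promoter windows were added with Python 3.11.15, pandas 2.3.3, numpy 2.4.6, scipy 1.17.1 and statsmodels 0.14.6; plots used matplotlib 3.10.9. The re-centring was tested on simulated statistics in which 200 genes changed, with equal odds of either sign. That setting does not show how re-centring behaves in these data, where 39.5% of genes were called. The members and lists were chosen with earlier results of these data known.

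The text names TFDP1, all members, genes that overlap a member or start head to head with it, the 3 called genes with the smallest p in each list, any gene called in the rarer direction, and the 3 listed genes nearest to the median of MCM2 to MCM7. CDT1, RIF1, DBF4, DBF4B and C17orf53 were added after their values were seen, as were the MCM6 and MCM10 promoter stretches. The cell type markers given with values were taken from their lists outside this rule.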

Additional observations from a re-analysis of the deposited data

How the results depend on the processing

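No paired analysis was possible because the table holds no values per sample; for the same reason fits that leave out a replicate were not run. The results depend on centring and on the authors' variance estimates, since the depth is unknown. Of the 90 alternative values for single members, 71 kept their side of the threshold, 17 lost the call, 2 gained it (MCM6, positive after both re-centrings on 1 value) and 0 changed sign. A sign could change only under re-centring or removal of the length and GC trends, since the other settings kept the fold change as deposited. The share of all genes called also moved with the setting. It was 13.1% positive and 17.4% negative at an adjusted p under 0.01, and 10.4% and 15.3% with a minimum of 1.2-fold. With the likelihood ratios divided by 7.34 it was 1.61% and 2.44%. The counts below are to be read against these shares. At an adjusted p under 0.01, 0 MCM members were negative and 5 of the other DNA helicases positive. With a minimum of 1.2-fold, 5 MCM members were positive and 0 negative; the positive counts were 2 for loading, 2 for unloading and 5 for other helicases, and the negative counts 0 for activation, 1 for fork partners and 2 for other helicases. With the likelihood ratios divided by 7.34, the positive counts were 2 for MCM members, 1 for loading, 2 for kinases, 1 for activation, 3 for fork partners, 2 for unloading, 0 for partners of MCM8 and MCM9 and 0 for other helicases, and the negative counts were 0 for MCM members, 0 for activation, 0 for fork partners, 0 for unloading and 0 for other helicases. Re-centring on the median of all genes (a shift of -0.03) left 0 negative MCM members. Re-centring on the median of 83 ribosomal protein genes (-0.08) left 0 negative MCM members and 0 activation, 1 fork partner and 1 other helicase gene negative; the MCM2 to MCM7 median was 0.25, and the positive share of all calls was 62.3% against 43.9% as deposited. Without the length and GC trends, that median was 0.25, 0 MCM members, 1 loading gene, 0 unloading genes and 2 other helicases were negative, and 4 other helicases were positive; 88 of the 89 listed genes had a transcript for this. The causes of these shifts were not tested. The remaining 113 alternative counts and medians stayed within 1.5 times the reported count or 1 SE of the median.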
